A study of Mus with 3 samples.

Results

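Club cells are the secretory cells of the mouse airway lining that release secretoglobins and break down inhaled chemicals. The cells described here were club cells without mucous genes, from 3 single-cell RNA libraries of whole lung. A cell was taken when Scgb1a1, the main club cell secretoglobin, made up at least 2% of its UMIs (unique molecules counted), it had at least 1 UMI of the cytochrome Cyp2f2, Sftpc of alveolar type 2 cells stayed under 2%, and the mucous genes Clca1, Muc5ac and Muc5b stayed under 0.5% together. The cells were chosen by these measured levels, which are therefore given as a description. The rule found 144 cells among 14441 that passed the filters, out of 15628 barcodes.

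The DJ-1 KO OVA mice lacked DJ-1, a protein made from Park7 and known for its role in the oxidative stress response, and received ovalbumin, an egg protein used as an allergen in mice. The WT OVA mice were wild type and received ovalbumin, and the WT PBS mice were wild type and received PBS. All were females aged 6 to 12 weeks, with no strain or ovalbumin schedule given in the sources used here, and each group was 1 library pooled over 3 mice, so no difference below has a replicate check or a test. The WT PBS library has a title that speaks of ovalbumin; it was placed by the treatment given in its characteristics, PBS. Levels are in CPM, the usual unit in which the UMIs of a gene are divided by all UMIs of the club cells of that library. Values in brackets bound a 95% interval, from a conditional binomial for a ratio and by the Clopper-Pearson method for a share, and cover counting error only.

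The club cells numbered 36 of 4441 kept cells in DJ-1 KO OVA (0.811%, 0.568 to 1.12), 65 of 6092 in WT OVA (1.07%, 0.824 to 1.36) and 43 of 3908 in WT PBS (1.10%, 0.797 to 1.48). Those 3 intervals overlapped. The cells were deeply sequenced, with medians of 28114 UMIs in DJ-1 KO OVA, 21901 in WT OVA and 40264 in WT PBS, and summed to 1087556, 1603608 and 1613491 UMIs. The DJ-1 KO OVA and WT PBS libraries shared 372 barcodes, and the smaller cell of each pair was left out. Of the club cells, 29 of 36 in DJ-1 KO OVA and 28 of 43 in WT PBS were the larger cell of such a pair. Cells with an unshared barcode were shallower, with medians of 5536 UMIs over 7 cells in DJ-1 KO OVA and 6452 UMIs over 15 cells in WT PBS, and values over those cells alone are given beside many of the results.

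Cells lay close to some limits of the rule. The lowest Scgb1a1 share among the club cells was 3.35% in DJ-1 KO OVA, 2.54% in WT OVA and 8.82% in WT PBS, and the highest share under the limit was 1.72%, 1.38% and 0.406% in those libraries. The highest mucous share inside was 0.136% in DJ-1 KO OVA, 0.381% in WT OVA and 0.367% in WT PBS, and the lowest outside was 0.612%, 0.504% and 0.510%. Between 0.25% and that limit lay 0, 6 and 6 club cells of DJ-1 KO OVA, WT OVA and WT PBS, and between the limit and 1% lay 2, 9 and 2 cells outside it. In DJ-1 KO OVA 12 further cells met every limit but held no Cyp2f2 UMI, while WT OVA and WT PBS had 0 such cells.

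Of the 4 markers of the label, Scgb1a1 and Cyp2f2 were present by rule, so their presence says nothing about it. The secretoglobin Scgb3a2, which the rule did not use, reached 0.5% of UMIs in 21 of 36 DJ-1 KO OVA cells, 51 of 65 WT OVA cells and 40 of 43 WT PBS cells. Bpifa1, an airway surface protein with antibacterial activity, went against the label in 2 libraries, since the 36 DJ-1 KO OVA cells held 13 UMIs in all and 1 WT OVA cell held 95.05% of the 2444 UMIs of its library. Markers of other cells varied in level. The 7 goblet markers, which include the mucous genes of the rule, summed to 428 CPM in DJ-1 KO OVA, 773 CPM in WT OVA and 2883 CPM in WT PBS. The 9 alveolar type 2 markers, Sftpa1 among them, summed to 12883 CPM in DJ-1 KO OVA, 5913 CPM in WT OVA and 4135 CPM in WT PBS, and the 9 ciliated markers to 1374, 1369 and 680 UMIs. In WT PBS most of the ciliated sum was Sec14l3, with 474 UMIs in cells with at least 0.5% of the secretoglobin Scgb3a1 and 192 in the others. Foxj1, Ccdc153 and Tmem212 were among the ciliated markers at 0 there. In DJ-1 KO OVA, WT OVA and WT PBS the 6 neutrophil markers summed to 676, 1199 and 116 UMIs, and the 12 macrophage and monocyte markers to 37, 271 and 539 UMIs. Single genes carried some of these sums. In DJ-1 KO OVA Retnlg gave 663 neutrophil marker UMIs in shared-barcode cells and 9 in the others, while Csf3r, Cxcr2 and Mmp9 were at 0. In WT PBS Lyz2, also an alveolar type 2 marker, gave 454 UMIs in cells with at least 0.5% Scgb3a1 and 74 in the others. Marco, C1qa, Ms4a7, Ly6c2 and Fcgr1 were at 0 in WT PBS. Markers of basal cells and eosinophils were near 0. The 6 eosinophil markers were at 0 in every library, the 5 basal cell markers summed to 0, 0 and 1 UMIs in DJ-1 KO OVA, WT OVA and WT PBS, and the 6 leukocyte markers to 26, 313 and 142 UMIs. In DJ-1 KO OVA 1 cell held 98.6% of the 145 mesothelial marker UMIs, and 1 cell held 90.9% of the 88 fibroblast marker UMIs.

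Club cells act as secretory cells and as progenitors of the small airway. They give rise to ciliated cells and, under type 2 cytokines such as IL-13, can take on mucous (goblet) features. Secretoglobins, collectins and antibacterial lectins that they release coat the airway, and their smooth endoplasmic reticulum carries the cytochromes, reductases and transferases that clear inhaled compounds.

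Of all cells that met the Scgb1a1, Cyp2f2 and Sftpc limits, the share at or over the mucous limit was 66.7% in DJ-1 KO OVA (72 of 108, 56.9 to 75.4), 44.4% in WT OVA (52 of 117, 35.3 to 53.9) and 6.52% in WT PBS (3 of 46, 1.37 to 17.9). The cells below the limit were therefore a minority of the gated airway cells in DJ-1 KO OVA, just over a majority in WT OVA and nearly all of them in WT PBS.

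**Figure D1:**
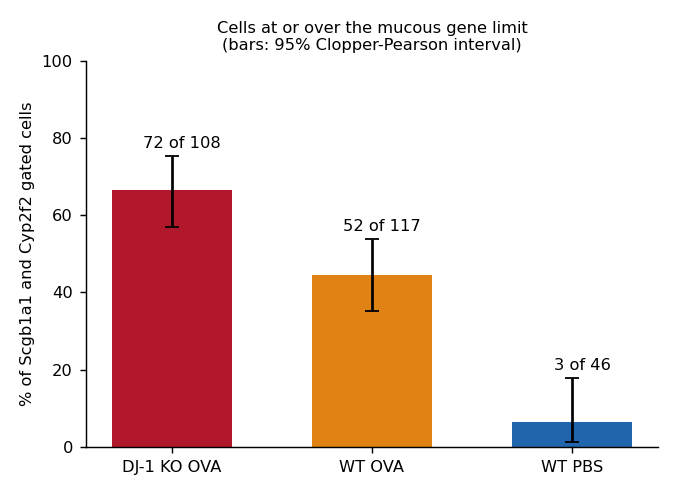
Share of the gated airway cells (y axis, percent) that held at least 0.5% of their UMIs in Clca1, Muc5ac and Muc5b, for DJ-1 KO OVA, WT OVA and WT PBS (x axis), with 95% Clopper-Pearson intervals and the cell counts above each bar. The bars stand at 66.7%, 44.4% and 6.52%, and the remaining 36, 65 and 43 cells are the club cells described here.

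The main secreted products differed in rank between the libraries. Scgb1a1 (chromosome 19, 9083642 to 9087956, a protein-coding gene in the mm10 build) made up 37.0% of the summed UMIs in DJ-1 KO OVA, 48.4% in WT OVA and 43.7% in WT PBS. Behind it, the resistin-like gene Retnla was the most abundant gene in DJ-1 KO OVA with 8.35% of UMIs, Scgb3a2 in WT OVA with 1.34%, and Scgb3a1, another secretoglobin, in WT PBS with 3.66%. Per cell, Scgb1a1 ran from 3.35% through a median of 33.7% to 63.0% in DJ-1 KO OVA, from 2.54% through 48.2% to 68.6% in WT OVA, and from 8.82% through 42.7% to 64.3% in WT PBS. The ranges overlapped over most of their length.

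Scgb3a2, a secretoglobin of the distal airway, stood at 11872 CPM in DJ-1 KO OVA, 13376 CPM in WT OVA and 30243 CPM in WT PBS. It was thus lower in both ovalbumin libraries, and stood at 6201 CPM over the unshared-barcode cells of DJ-1 KO OVA. Wfdc2, an antiprotease-like airway protein, was at 6603, 5342 and 7822 CPM in DJ-1 KO OVA, WT OVA and WT PBS. Cbr2, a carbonyl reductase abundant in mouse lung, was at 6389.6, 6328 and 5245 CPM. Both genes thus lay close together in the 3 libraries.

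**Figure D2:**
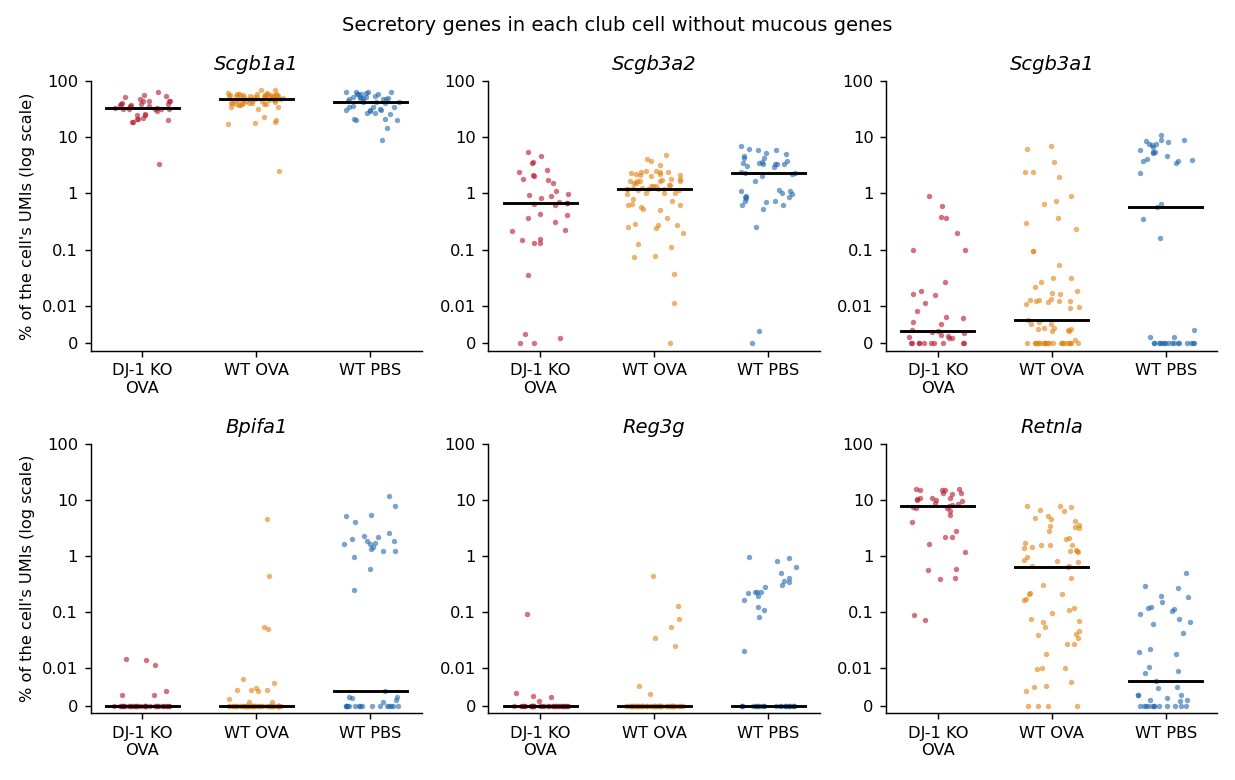
Percent of the UMIs of each club cell (y axis, log scale, linear near 0) taken by 6 secretory genes in DJ-1 KO OVA, WT OVA and WT PBS (x axis); each point is 1 cell and each bar a median. Scgb1a1 overlapped between libraries, Retnla medians stood at 7.91%, 0.647% and 0.00677%, and Scgb3a1, Bpifa1 and Reg3g form a high and a low group of cells in WT PBS.

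The WT PBS club cells split by a second set of defence products. Scgb3a1 (chromosome 11, 49663595 to 49665118) held at least 0.5% of UMIs in 2 of 36 DJ-1 KO OVA cells (5.56%, 0.680 to 18.7), 9 of 65 WT OVA cells (13.8%, 6.53 to 24.7) and 22 of 43 WT PBS cells (51.2%, 35.5 to 66.7). In WT PBS, 20 of the 22 Scgb3a1-high cells also held at least 0.5% of Bpifa1. That combination was met by 0 cells in DJ-1 KO OVA and 1 cell in WT OVA. Across the 43 WT PBS cells the per-cell shares of Scgb3a1 had a Spearman correlation of 0.83 with Bpifa1, 0.85 with Reg3g, an antibacterial lectin, and 0.75 with Scgb3a2; the cells share 1 library and differ in depth. The Scgb3a1-high WT PBS cells were deeper than the Scgb3a1-low ones, with median UMIs of 45870.0 against 25085, and held less Scgb1a1, with a median of 33.1% against 51.4%. They also held most of the mucous gene UMIs that lay under the limit of the rule. Muc5b had 1541 UMIs in the Scgb3a1-high WT PBS cells against 9 in the Scgb3a1-low ones, and Clca1 had 303 against 0.

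Several lowly expressed genes were found almost wholly in the Scgb3a1-high WT PBS cells. All 99 UMIs of Lgr6, a receptor of the R-spondin family, all 57 of Kcne3, a potassium channel subunit, all 56 of the lipoxygenase Alox15, and all 79 of the claudin Cldn22 lay there. So did 68 of 73 UMIs of the Notch target Hey1, 52 of 53 of the transcription factor Pax9, 186 of 187 of Pdpn, and 80 of 85 of the keratin Krt15. The cytochromes showed the same placement, with 118 of 118 UMIs of Cyp4a12b and 535 of 558 of Cyp2a5. Since Scgb3a1 defined the split, these counts describe the cells and carry no test.

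**Figure D3:**
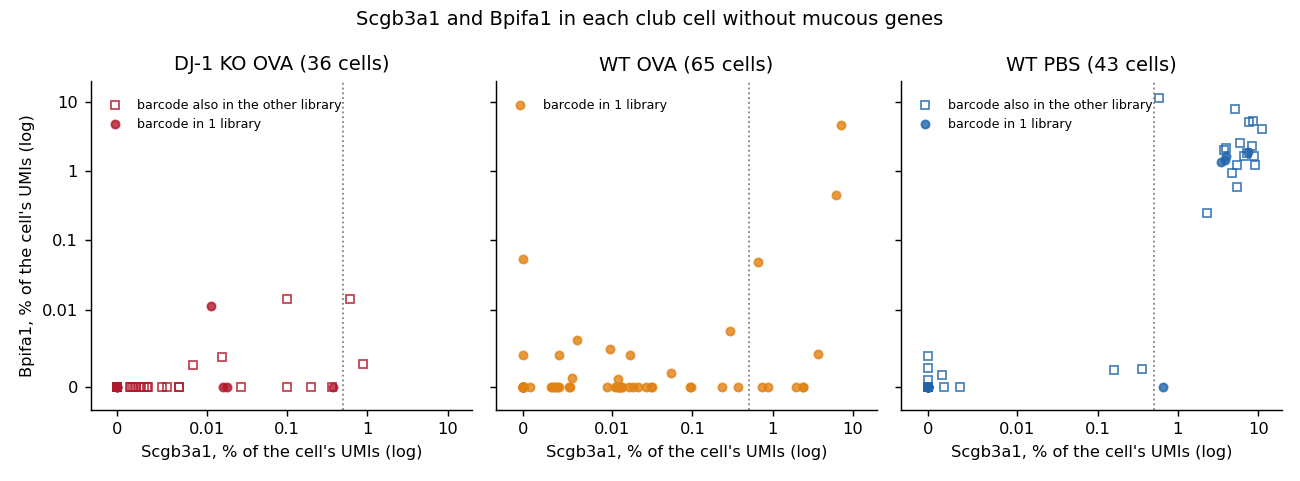
Percent of UMIs in Scgb3a1 (x axis, log scale, linear near 0) and in Bpifa1 (y axis, same scale) for each club cell of DJ-1 KO OVA, WT OVA and WT PBS; open squares are cells whose barcode also occurs in the other of the DJ-1 KO OVA and WT PBS libraries, and the dotted line marks 0.5% Scgb3a1. In WT PBS 20 of 43 cells hold at least 0.5% of both genes, against 0 of 36 in DJ-1 KO OVA and 1 of 65 in WT OVA, and cells with unshared barcodes occur on both sides of the line in WT PBS.

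A second small group carried ciliated cell genes. Foxj1, the master transcription factor of motile cilia, had 156 UMIs in 7 of 36 DJ-1 KO OVA cells (1 of these UMIs with an unshared barcode), 140 UMIs in 6 of 65 WT OVA cells and 0 UMIs in 43 WT PBS cells, where a count of 0 allows an upper limit of 8.22% of cells with a UMI. In B cells, which should lack it, 0%, 0.140% and 0.182% of cells held a Foxj1 UMI in DJ-1 KO OVA, WT OVA and WT PBS, at median depths of 1193, 1386 and 3118 UMIs. After each club cell was thinned to 1000 UMIs, 3, 1 and 0 cells kept one. The Foxj1 cells were deep, with median UMIs of 59574 against 25919 for the others in DJ-1 KO OVA and 58650.5 against 20537 in WT OVA. They held 70 of 73 Myb UMIs and 50 of 53 Ccno UMIs in DJ-1 KO OVA, and 93 of 102 Myb UMIs and 52 of 54 Ccno UMIs in WT OVA; both genes are known for their place early in ciliated cell formation. Their summed Scgb1a1 level, 374696 CPM in DJ-1 KO OVA, against 463324 CPM in WT OVA, was close to that of all club cells of those libraries, and their Cyp2f2 level was lower, at 1729 CPM in DJ-1 KO OVA, against 3758 CPM in WT OVA. Single Foxj1 cells differed in Scgb1a1. In DJ-1 KO OVA the cells with 60, 49 and 20 Foxj1 UMIs held 21.5%, 24.6% and 39.7%, against a median of 33.9% in cells without Foxj1. In WT OVA the cell with 57 Foxj1 UMIs held 17.1% and those with 33 held 20.4% and 45.9%, against a median of 48.2%. Scrublet called 0 of the 144 club cells as doublets, but it called 3 cells in the whole DJ-1 KO OVA library, too few for the call to have worked there. Whether they are doublets of a club and a ciliated cell was not tested.

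Ovalbumin challenge in wild-type mice was read from WT OVA against WT PBS. Of 6230 genes with at least 30 UMIs over both libraries, 399 were at least 2-fold higher in WT OVA (6.4%) and 237 at least 2-fold lower (3.8%), and the median log2 ratio over all genes was 0.10. The type 2 product Retnla stood out among the abundant genes that were higher, and the Scgb3a1, Bpifa1 and Reg3g group among those that were lower. Scgb3a1, Bpifa1 and Reg3g were higher in the WT OVA cells that the mucous limit left out, so their lower level holds for the club cells of the rule only. The 1 WT OVA library also serves in the DJ-1 comparison below, so the 2 comparisons share their cells.

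Retnla (chromosome 16, 48842609 to 48844461), which encodes a secreted resistin-like protein induced by IL-4 and IL-13, had 83458 CPM in DJ-1 KO OVA, 13185 CPM in WT OVA and 534 CPM in WT PBS. WT OVA was 24.7 times WT PBS (23.1 to 26.4). In single cells it held from 0.0723% through a median of 7.91% to 15.96% of UMIs in DJ-1 KO OVA, from 0 through 0.647% to 7.95% in WT OVA, and from 0 through 0.00677% to 0.508% in WT PBS. At least 1% of UMIs was reached by 30 of 36 cells in DJ-1 KO OVA, 26 of 65 in WT OVA, but by 0 of 43 in WT PBS. Free RNA was far lower, since B cells of the same libraries held 389.8, 96.4 and 1.37 CPM. Without the shared-barcode cells, DJ-1 KO OVA stood at 37207 CPM and WT PBS at 862 CPM, in the same order as with them.

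Chia1, the acidic chitinase of the lung, had 1799 CPM in DJ-1 KO OVA, 304 CPM in WT OVA and 24.2 CPM in WT PBS, where 1 cell held 82.1% of its 39 UMIs. WT OVA was 12.6 times WT PBS (9.06 to 17.9). Chil1, a chitinase-like protein without chitinase activity, had 1358 CPM in DJ-1 KO OVA, 383 CPM in WT OVA and 177 CPM in WT PBS. The WT OVA level was 2.17 times that of WT PBS (1.88 to 2.50). Both genes thus had the same order of libraries as Retnla. B cells held 132 CPM of Chil1 in WT PBS, close to the club cells there. Retnlg, another resistin-like gene, had 618, 101 and 8.68 CPM in DJ-1 KO OVA, WT OVA and WT PBS; B cells of WT PBS held more of it, at 276 CPM, and neutrophils are known to express it.

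The IL-13 responsive and mucous differentiation list had 18 measured genes in WT OVA against WT PBS, leaving out the genes of the rule. Of these 4 were at least 2-fold higher (Retnla, Chia1, Ly6i and Chil1) and 9 at least 2-fold lower, and the median log2 ratio was -0.94. Those lower included Alox15, Tff2, a trefoil peptide of mucus, Bpifb1, Agr2, a disulphide isomerase for mucins, and the mucous regulator Spdef. The mucous limit had removed 52 gated airway cells from WT OVA but only 3 from WT PBS. Set beside those removed WT OVA cells, 14 of 21 list genes were at least 2-fold lower in its club cells. A further 2 were higher, and the median was -3.04. The part of the mucous limit in the lower genes was not tested. Tff2 had 88.3 CPM in DJ-1 KO OVA, 337 CPM in WT OVA and 1599.6 CPM in WT PBS. In WT PBS the Scgb3a1-high cells held 2562 of its 2581 UMIs. With only the cells under 0.5% Scgb3a1 in each library (34, 56 and 21 cells), the median of the list turned to 1.40, with 7 of 12 genes higher and 0 lower against 13.5% and 0.668% of all genes, and Tff2 stood at 54.3, 92.0 and 28.9 CPM in DJ-1 KO OVA, WT OVA and WT PBS. The direction of the list thus differed with and without the Scgb3a1-high cells.

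Secretoglobins and defence proteins were mostly lower in the WT OVA club cells. Of 19 measured genes 1 was at least 2-fold higher (Lcn2) and 10 were lower, with a median log2 ratio of -1.08. Scgb3a1 had 768 CPM in DJ-1 KO OVA, 4466 CPM in WT OVA and 36578.5 CPM in WT PBS, and the WT OVA level was 0.122 of that of WT PBS (0.119 to 0.125). Bpifa1 had 12.0, 1524 and 17905 CPM in DJ-1 KO OVA, WT OVA and WT PBS. Reg3g had 4.60, 181 and 2154 CPM, and 77.6% of its WT OVA UMIs came from 1 cell; Reg3g has a close paralog, so its reads may be split. In each of the 3 genes most WT OVA cells lay at or near 0 while a large group of WT PBS cells did not. Over WT PBS cells with an unshared barcode alone, Scgb3a1 stood at 26453 CPM and Bpifa1 at 7517 CPM. Among the cells under 0.5% Scgb3a1 the list's median was -0.10.

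Enzymes that clear inhaled compounds were lower in part. Of 37 measured xenobiotic metabolism genes 2 were at least 2-fold higher in WT OVA and 8 lower, with a median log2 ratio of -0.37. Cyp2f2 itself, used by the rule, was at 4104 CPM in DJ-1 KO OVA, 6402 CPM in WT OVA and 6919 CPM in WT PBS. Over the cells with an unshared barcode it was at 9225 CPM in DJ-1 KO OVA and 9148 CPM in WT PBS, so the order of DJ-1 KO OVA and WT OVA turned. Aldh3a1, an aldehyde dehydrogenase, had 15.6, 54.3 and 278 CPM in DJ-1 KO OVA, WT OVA and WT PBS. The sulfotransferase Sult1d1 had 7.36, 43.0 and 333 CPM, and the paraoxonase Pon1 49.7, 150.3 and 315 CPM. All 3 genes had their highest level in WT PBS and their lowest in DJ-1 KO OVA. In WT PBS the Scgb3a1-high cells held 510 of 537 UMIs of Sult1d1, 391 of 448 of Aldh3a1 and 338 of 509 of Pon1. Over the Scgb3a1-low cells Sult1d1 stood at 7.90, 24.8 and 41.1 CPM in DJ-1 KO OVA, WT OVA and WT PBS. Aldh3a1 stood at 12.8, 40.3 and 86.8 CPM there, and Pon1 at 51.4, 137 and 260 CPM. The order of libraries thus stayed, with smaller gaps between WT OVA and WT PBS for Sult1d1 and Aldh3a1. The 2 higher in WT OVA were Cyp1b1, at 27 UMIs in WT OVA against 7 UMIs in WT PBS, and Cyp2s1, for which 1 cell held 59.5% of the 116 WT OVA UMIs.

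Of 24 measured acute phase and inflammatory genes 10 were at least 2-fold higher in WT OVA and 2 lower, with a median log2 ratio of 0.57. The 6 neutrophil markers moved with this list. Their sum was 748 CPM in WT OVA and 71.9 CPM in WT PBS. In WT OVA 1 cell held 59.97% of it and 3 cells 89.8%, and their part in the list was not tested. Saa3, an acute phase protein, had 294 UMIs in 7 cells of DJ-1 KO OVA, 443 UMIs in 20 cells of WT OVA and 0 UMIs in WT PBS. WT OVA was at least 149-fold higher, taking a floor of 3 UMIs for the WT PBS library. B cells held 125, 5.27 and 0 CPM of Saa3 in DJ-1 KO OVA, WT OVA and WT PBS, below the 270.3 and 276 CPM of the club cells of the ovalbumin libraries. Ccl20, a chemokine that draws CCR6-bearing cells, had 41.4 CPM in DJ-1 KO OVA, 305 CPM in WT OVA and 91.7 CPM in WT PBS. It was higher in WT OVA by 3.32 times (2.76 to 4.02), and B cells held at most 0.753 CPM of it. Ptgs2, an inducible prostaglandin synthase, had 242, 342 and 94.2 CPM in DJ-1 KO OVA, WT OVA and WT PBS, and Lcn2, an iron-trapping defence protein, 396, 109 and 34.7 CPM. In B cells Lcn2 stood at 58.7, 82.1 and 112 CPM, above the club cells of WT PBS. Il1b, at 8.28, 141 and 16.7 CPM, stayed below its level in B cells in every library (235, 392 and 383 CPM), and 1 cell held 43.8% of its WT OVA UMIs. B cells were shallower, with median UMIs of 1386 in WT OVA against 21901 in club cells. A lower CPM than theirs thus does not mark a gene as free RNA. Without the shared-barcode cells the median of the acute phase list was -0.01, while Saa3 and Ccl20 stayed higher in WT OVA, with log2 ratios of 3.58 and 2.50.

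Among progenitor and airway transcription factors 6 of 36 measured genes were at least 2-fold higher in WT OVA and 5 lower, with a median of -0.11. Nkx2-1, the lung lineage factor, had 143, 118 and 57.0 CPM in DJ-1 KO OVA, WT OVA and WT PBS, and Foxa2, a regulator of airway epithelium, 92.9, 63.6 and 27.3 CPM. Over the WT PBS cells with an unshared barcode Nkx2-1 stood at 115 CPM from 15 UMIs, near WT OVA, and Foxa2 at 38.5 CPM from 5 UMIs. The Foxj1 cells held 50 of the 102 Foxa2 UMIs of WT OVA, and 46 Foxa2 UMIs in DJ-1 KO OVA. Notch1, a receptor that favours secretory over ciliated fate, had 31.3, 68.0 and 29.1 CPM. The Notch target Hey1 had 8 UMIs in DJ-1 KO OVA, 0 in WT OVA and 73 in WT PBS, so WT OVA was at least 24.2-fold lower than WT PBS. Foxj1 was higher as described above, with other ciliated genes among the highest ratios. Meig1 stood at 68.4 times WT PBS (11.9 to 2742) and Tppp3 at 35.5 times (17.0 to 89.2), from 1 and 7 UMIs in WT PBS. The 6 Foxj1 cells of WT OVA held 62 of its 68 Meig1 UMIs and 241 of its 247 Tppp3 UMIs.

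The counts of the other lists stand beside 6.4% of all genes higher and 3.8% lower. None of the 26 measured mTOR, AKT, autophagy and mitophagy genes passed 2-fold between WT OVA and WT PBS, and 1 of 32 NRF2 and antioxidant genes did, the cystine transporter Slc7a11, higher by 2.46 times (1.58 to 3.94). For MHC class I and II genes 0 of 16 were higher and 2 lower (median -0.33), and for interferon response genes 0 of 9 and 2 (median -0.51). For ion and water transport 0 of 20 were higher and 5 lower (median 0.029). Immediate early genes had 5 of 30 higher and 3 lower (median 0.31), and lipid and arachidonic acid genes 2 of 17 and 2 (median 0.0089). Of 7 epithelial alarmin and chemokine genes 3 were higher, Ccl20, Areg and Ccl24, but single cells held 94.8% of the Areg UMIs and 100% of the Ccl24 UMIs in WT OVA. The secretory pathway and ER stress list had 0 of 35 genes higher and 1 lower, Sdf2l1, with a median of 0.00.

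**Figure D4:**
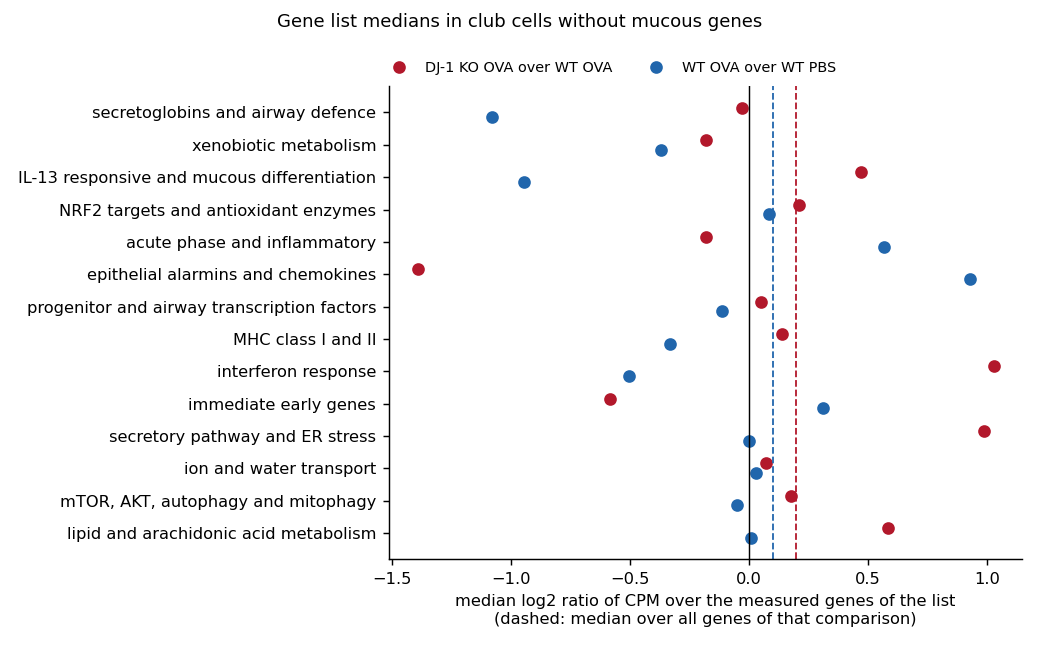
Median log2 ratio of CPM (x axis) over the measured genes of each of the 14 gene lists (y axis), with 1 mark for the ratio of DJ-1 KO OVA to WT OVA and 1 for that of WT OVA to WT PBS; dashed lines show the medians over all genes, 0.20 and 0.10. Both comparisons use the WT OVA cells, so opposite positions of a list are not independent. The secretory pathway list stands at 0.98 in the first ratio and at 0.00 in the second.

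DJ-1 loss under ovalbumin was read from DJ-1 KO OVA against WT OVA. Park7 (chromosome 4, 150897133 to 150909921) had 37 UMIs in 20 cells of DJ-1 KO OVA, 171 UMIs in 49 cells of WT OVA and 220 UMIs in 32 cells of WT PBS. These were 34.0, 107 and 136 CPM, and DJ-1 KO OVA was 0.319 of WT OVA (0.217 to 0.457). Park7 was thus lower in DJ-1 KO OVA but detected, and the labels do not say which part of the gene was removed. Whether 3′ tags outside a deletion were still counted was not tested. B cells of DJ-1 KO OVA held 8.01 CPM. In the 7 DJ-1 KO OVA cells with an unshared barcode Park7 had 3 UMIs (91.6 CPM). In the 29 cells whose barcode also occurs in the WT PBS library Park7 had 34 UMIs (32.2 CPM). The part of barcode sharing in these UMIs was not tested.

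Of 6001 genes measured in both libraries, 431 were at least 2-fold higher in DJ-1 KO OVA (7.18%) and 179 at least 2-fold lower (2.98%), with a median log2 ratio of 0.20. That balance depended on scaling, with 178 higher and 383 lower when the dominant secretory and mitochondrial genes were left out of the total, and 248 higher and 289 lower when the median ratio was set to 0. The counts and ratios below are not shifted by the median of 0.20, except where median scaling is named, and stand beside it. Genes of protein folding in the secretory pathway, Retnla with other type 2 products, and the collectins were higher in DJ-1 KO OVA, and Ccl20, Cldn4 and several metabolising enzymes were lower.

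Chaperones and folding enzymes of the endoplasmic reticulum were the list with the most genes past 2-fold, 17 of 35 higher and 0 lower, with a median log2 ratio of 0.98. Hspa5, the main luminal chaperone BiP (chromosome 2, 34772090 to 34776529), had 928 CPM in DJ-1 KO OVA, 264 CPM in WT OVA and 262 CPM in WT PBS. DJ-1 KO OVA was 3.51 times WT OVA (3.13 to 3.94). Sdf2l1, which works with Hspa5, had 107 CPM (116 UMIs) in DJ-1 KO OVA, 9.35 CPM (15 UMIs) in WT OVA and 19.8 CPM (32 UMIs) in WT PBS, a ratio of 11.4 between DJ-1 KO OVA and WT OVA (6.64 to 21.0). Both wild-type libraries lay close together for Hspa5, with DJ-1 KO OVA above them, and the unshared-barcode cells of DJ-1 KO OVA stood at 1649.6 CPM.

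Manf, a secreted stress-induced factor, had 283, 62.4 and 80.0 CPM in DJ-1 KO OVA, WT OVA and WT PBS. Creld2 had 80.9, 12.5 and 16.7 CPM, and the disulphide isomerase Pdia4 134, 33.1 and 34.1 CPM. The remaining higher genes were Syvn1, Pdia6, Hyou1, Dnajb11, Hsp90b1, Calr, Dnajc3, Ostc, Pdia3, Creb3l1, Ssr2 and Ssr3. Creb3l1 among these is a transcription factor. Of 3 other stress-induced transcription factors, Xbp1 was higher but just under 2-fold, with a ratio of 1.98 (1.63 to 2.40). The ratios of the others were 0.925 for Atf4 (0.765 to 1.12) and 1.14 for Ddit3 (0.662 to 1.93). Herpud1, a factor of ER-associated degradation, was at 1.13 (0.973 to 1.30).

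The higher level of these genes was also seen outside the club cells. Hspa5 stood at 983 CPM in B cells of DJ-1 KO OVA and 521 CPM in those of WT OVA, and at 1402 and 704 CPM in all other kept cells of DJ-1 KO OVA and WT OVA. Sdf2l1 stood at 84.8 and 39.5 CPM in other kept cells of these libraries. In B cells Manf stood at 160.2 and 59.5 CPM and Pdia4 at 272 and 124 CPM in DJ-1 KO OVA and WT OVA, so Hspa5 and Pdia4 were lower in the club cells of both libraries than in B cells. The list's median among the club cells was 0.65 with 11 genes higher when dominant genes were left out of the total and 0.79 with 15 higher under median scaling, and no gene of it was 2-fold lower under either. Without the shared-barcode cells it was 1.29 with 19 of 30 higher, where 46.7% of all genes were higher. The part that this library-wide difference has in the club cell values was not tested.

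**Figure D5:**
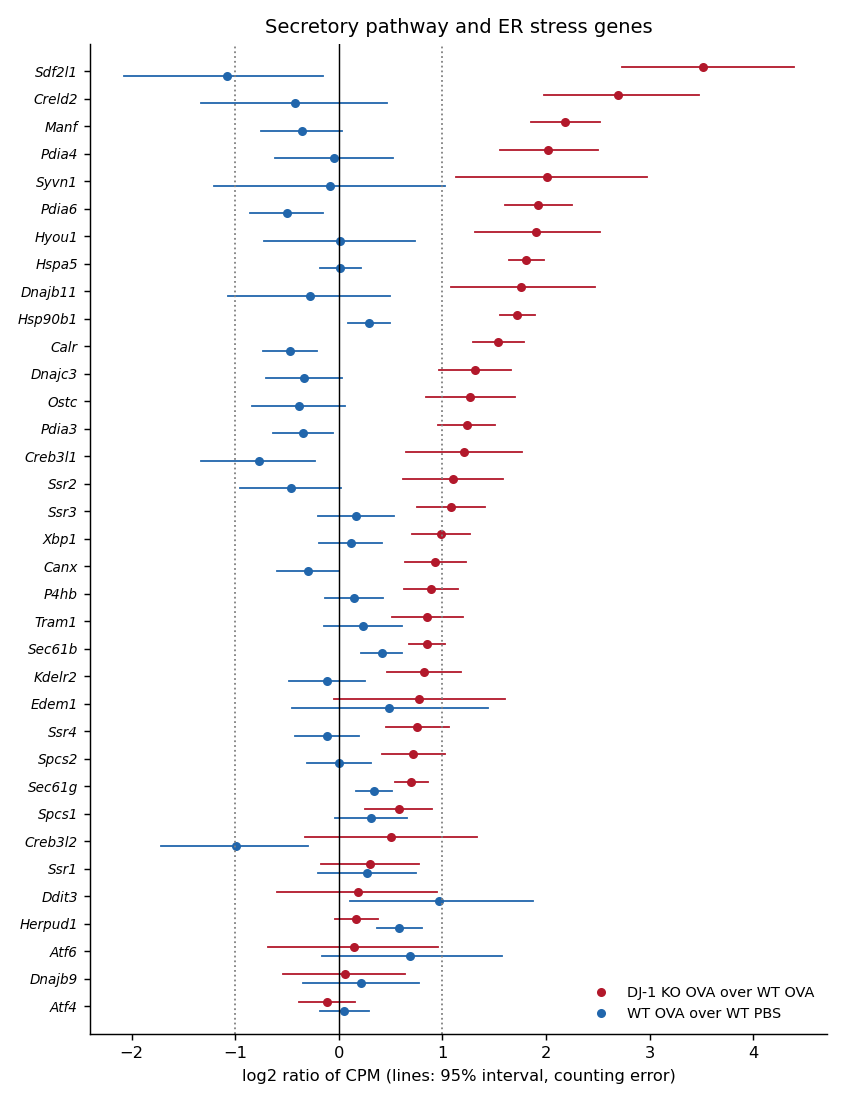
Log2 ratio of CPM (x axis) for each measured gene of the secretory pathway and ER stress list (y axis) in club cells, with 1 mark for the ratio of DJ-1 KO OVA to WT OVA and 1 for that of WT OVA to WT PBS, with 95% counting intervals as lines and dotted lines at 2-fold. In the ratio to WT OVA 17 of 35 genes lie beyond 2-fold higher, led by Sdf2l1 at 3.51 on the log2 scale, and in the ratio to WT PBS 0 do.

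Retnla was 6.33 times as high in DJ-1 KO OVA as in WT OVA (6.24 to 6.43), Chia1 5.93 times (5.36 to 6.56) and Chil1 3.55 times (3.23 to 3.90). The 7 DJ-1 KO OVA cells with an unshared barcode were lower, at 37207 CPM of Retnla, with a median Retnla share of 0.578%, against 0.647% over the WT OVA cells, and 3 of the 7 reached 1%. The per-cell medians over all club cells were apart for Chil1 too, at 0.136% in DJ-1 KO OVA, against 0.0327% in WT OVA. Over the 7 DJ-1 KO OVA cells with an unshared barcode Chia1 stood at 1741 CPM and Chil1 at 3269 CPM, both above WT OVA. Retnlb, another resistin-like gene, had 43 UMIs in 10 DJ-1 KO OVA cells and 0 UMIs in WT OVA and in WT PBS, so DJ-1 KO OVA was at least 21.1-fold higher than WT OVA with a floor of 3 UMIs, and it had 0 UMIs in the cells with an unshared barcode. Chil4 had 82.8 CPM in DJ-1 KO OVA, against 6.24 CPM in WT OVA, while DJ-1 KO OVA B cells held 136 CPM. Of its 90 DJ-1 KO OVA UMIs 45 lay in the 2 Scgb3a1-high cells, and Chil4 has a near-identical paralog, Chil3, so its level is uncertain. In the IL-13 list 6 of 15 measured genes were higher and 1 lower, with a median of 0.47. With a mucous limit of 1% the median turned to -0.47, with 5 of 18 genes higher and 4 lower.

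The collectins Sftpa1 and Sftpd, which bind microbes and allergens in the airway fluid, were higher too. Sftpa1 (chromosome 14, 41131788 to 41136373) had 11135 CPM in DJ-1 KO OVA, 4338 CPM in WT OVA and 2689.8 CPM in WT PBS, and DJ-1 KO OVA was 2.57 times WT OVA (2.49 to 2.64). Sftpd (chromosome 14, 41172212 to 41185198) had 1837, 697 and 608 CPM in DJ-1 KO OVA, WT OVA and WT PBS, a ratio of 2.64 between DJ-1 KO OVA and WT OVA (2.45 to 2.84). B cells held less of both, 125 CPM of Sftpa1 in DJ-1 KO OVA, 786 CPM in WT OVA and 846 CPM in WT PBS. Sftpb, which alveolar type 2 cells also make, was at 0.979 of WT OVA (0.909 to 1.05), and Sftpc at 0.863 (0.717 to 1.04). Other alveolar type 2 markers were higher with the collectins, with Slc34a2, a phosphate transporter, at 435, 143 and 96 UMIs in DJ-1 KO OVA, WT OVA and WT PBS, Lamp3 at 34, 18 and 4 UMIs and Napsa at 18, 8 and 9 UMIs. The part of alveolar type 2 RNA in the collectin values was not tested. The DJ-1 KO OVA cells with an unshared barcode had 10081 CPM of Sftpa1 and 2474 CPM of Sftpd. Per-cell shares of Retnla and Sftpa1 had Spearman correlations of 0.64 over the 36 DJ-1 KO OVA cells, 0.57 over the 65 WT OVA cells and 0.16 over the 43 WT PBS cells; cells share a library and differ in depth.

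Other defence proteins were higher in DJ-1 KO OVA as well. Cxcl15, a lung chemokine, had 1724, 619 and 475 CPM in DJ-1 KO OVA, WT OVA and WT PBS, and Pigr, the receptor that carries IgA across the epithelium, 1109.8, 552 and 799.5 CPM. Complement C3 had 931, 324 and 376 CPM, and in B cells 481, 63.3 and 41.4 CPM. Lcn2 was 3.65 times WT OVA (3.06 to 4.38), with 34.6% of its DJ-1 KO OVA UMIs in 1 cell. The defence list had 5 of 19 genes higher and 4 lower, with a median of -0.03, the lower ones being Bpifa1, Reg3g, Lyz2 and Scgb3a1. Scgb3a1 was 0.172 of WT OVA (0.160 to 0.185), and 48.9% of its WT OVA UMIs lay in 1 cell. Among cells under 0.5% Scgb3a1 it was at 281 CPM in DJ-1 KO OVA, against 216 CPM in WT OVA, and the list's median was 0.76.

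Genes lower in DJ-1 KO OVA came from several lists. Ccl20 was 0.136 of WT OVA (0.0977 to 0.184), with 45 UMIs in 8 cells against 489 UMIs in 24 cells. Cldn4, a tight junction protein, had 37.7 CPM in DJ-1 KO OVA, 208 CPM in WT OVA and 112 CPM in WT PBS, and Sfn, an epithelial 14-3-3 protein, 57.9, 208 and 207 CPM. Tnfaip3, a brake on NF-kB signalling, was 0.379 of WT OVA (0.290 to 0.490), and its CPM lay below that of the shallower B cells. Without the shared-barcode cells Ccl20 turned higher in DJ-1 KO OVA, at 0.68 on the log2 scale from 16 UMIs, where the median over all genes was 0.90, and Cldn4 stayed lower with 0 UMIs. Of the acute phase list 3 of 24 genes were higher and 6 lower (median -0.18), and of the 7 alarmin and chemokine genes 0 were higher and 4 lower (median -1.39). Hbegf, a growth factor for epithelium, was 0.381 of WT OVA (0.261 to 0.545). Without the shared-barcode cells the alarmin median turned to 0.56, and without the top cell of each gene it was -0.47 with 2 higher and 2 lower.

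Metabolising enzymes that were lower in DJ-1 KO OVA numbered 5 of 35, among them Cyp2a5, Sult1d1, Aldh3a1 and Pon1, against 1 higher (Akr1b8, with 52.4% of its DJ-1 KO OVA UMIs in 1 cell), and the median was -0.18. Pon1 was 0.330 of WT OVA (0.241 to 0.445). Without the shared-barcode cells Pon1 had 6 UMIs in DJ-1 KO OVA, and its log2 ratio turned to 0.29.

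Antioxidant genes gave 4 of 32 higher and 1 lower, with a median of 0.21, close to that of all genes. The higher ones were Gclc, which makes the precursor of glutathione, at 677 CPM in DJ-1 KO OVA, 294 CPM in WT OVA and 347 CPM in WT PBS (1986 CPM over the unshared-barcode cells of DJ-1 KO OVA), Me1, Glrx and Mt2, and the lower one was Park7. Interferon response genes gave 5 of 8 higher and 0 lower with a median of 1.03, led by Ifi27 at 46.0, 15.6 and 50.2 CPM in DJ-1 KO OVA, WT OVA and WT PBS, against 29.4, 39.2 and 56.5 CPM in B cells. The count was 2 of 8 when dominant genes were left out of the total, 2 of 8 under median scaling and 2 of 8 without the top cell of each gene, and 0 of 4 without the shared-barcode cells. Lipid genes gave 5 of 16 higher, among them Scd2, Scd1, Ptgs1 and Fasn, and 2 lower, Apoe and Cd36, with a median of 0.58. Scd1, a fatty acid desaturase, had 224 CPM in DJ-1 KO OVA, against 81.7 CPM in WT OVA, and the fatty acid transporter Cd36 107 CPM in DJ-1 KO OVA, against 215 CPM in WT OVA.

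The counts of the remaining lists stand beside 7.18% of all genes higher and 2.98% lower. Immediate early genes gave 3 of 28 higher and 4 lower (median -0.58); the higher Hspa1a and Hspa1b are near-identical copies whose reads may be split, and for the lower Klf2 1 cell held 61.0% of the WT OVA UMIs. Progenitor and airway transcription factors gave 2 of 35 higher and 5 lower (median 0.05), MHC genes 2 of 14 and 2 (median 0.14), ion and water transport 1 of 19 and 1 (median 0.07), and mTOR, AKT, autophagy and mitophagy 2 of 26 and 0 (median 0.17). By rank of ratio, 4 of the 10 highest genes in DJ-1 KO OVA, Aqp1, C4b, Mrpl9 and Msln, had over 90% of their UMIs in 1 cell. Ppp1r14d, a phosphatase inhibitor subunit, had 57 UMIs in 23 DJ-1 KO OVA cells and 12 UMIs in 10 WT OVA cells, a ratio of 7.004 (3.72 to 14.3). The GTPase gene Rhov had 4 UMIs in DJ-1 KO OVA, against 49 UMIs in WT OVA, a ratio of 0.120 (0.0315 to 0.328).

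Set beside the mucous cells of the same library, the club cells shared Retnla and parted on most other products. The mucous share chose both groups, so the values are a description and nothing is read from their counts, which were 709 of 6364 genes at least 2-fold higher in club cells (11.1%) and 580 lower (9.11%) in DJ-1 KO OVA, and 548 of 5918 higher (9.26%) and 542 lower (9.16%) in WT OVA. WT PBS had 3 mucous cells and was left out. Retnla stood at 83458 CPM in the club cells of DJ-1 KO OVA and 77897 CPM in its mucous cells, and at 13185 CPM and 20794 CPM in the club and mucous cells of WT OVA. Both kinds of cell thus had more Retnla in DJ-1 KO OVA.

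Chia1 was higher in the club cells, at 1799 CPM in club cells and 193 CPM in mucous cells of DJ-1 KO OVA, and 487 UMIs in club cells and 0 UMIs in mucous cells of WT OVA. Haptoglobin, Hp, had 3384 CPM in club cells and 91.2 CPM in mucous cells of DJ-1 KO OVA, and 2244 and 272 CPM in those of WT OVA. Sftpd had 1837 and 247 CPM in club and mucous cells of DJ-1 KO OVA, and 697 and 186 CPM in those of WT OVA. These 3 genes were higher in club cells in both ovalbumin libraries. Scgb3a1 had 768 and 36544 CPM in club and mucous cells of DJ-1 KO OVA, and 4466 and 60357 CPM in those of WT OVA. Reg3g had 4.60 and 11492 CPM in DJ-1 KO OVA, and 181 and 7962 CPM in WT OVA, and Bpifa1 12.0 and 4227 CPM and 1524 and 8811 CPM. The products that marked the Scgb3a1-high club cells of WT PBS were thus found mainly in the mucous cells of the ovalbumin libraries. Secretory pathway genes gave 0 of 37 higher and 4 lower in club cells of DJ-1 KO OVA (median -0.15) and 0 of 35 and 12 in those of WT OVA (median -0.77).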

How the data were processed

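RNA of single cells from whole lung was read in 3 libraries, 1 per group. The authors deposited raw UMI counts per gene and barcode in matrices whose headers name software version 3.1.0; Cell Ranger, STAR and mm10 are named per the submitters' processing notes. Per the labels, 3′ v3 kits were used. Barcodes needed 200 genes or more and no more than 20% of UMIs from mitochondrial genes, minus the smaller cell of each barcode found in both WT PBS and DJ-1 KO OVA. UMIs were summed over the club cells of each library, and CPM and ratios were computed with Python 3.11.15, NumPy 2.4.6, SciPy 1.17.1 and pandas 2.3.3, with Scrublet in scanpy 1.11.5 (expected rate 0.06) for doublets. Figures used matplotlib 3.10.9. Genes needed 30 UMIs over both libraries, a gene at 0 was set to a floor of 3 UMIs for calls and medians, and genes of the rule were left out of lists.

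Library totals were 17339386 UMIs in DJ-1 KO OVA, 24438516 in WT OVA and 26548669 in WT PBS. B cells (Cd79a and Ms4a1 present, Cd3e absent) gave the level of free RNA, from 225, 713 and 549 cells in DJ-1 KO OVA, WT OVA and WT PBS. They were shallower than the club cells, so a CPM below theirs does not mark a gene as free RNA. The cells and the 14 gene lists (462 of 465 list entries were in the matrix) were chosen with earlier results of these data known. Named are the genes of the rule, list genes with 30 UMIs, markers, Park7 and, per comparison, the 10 highest and 10 lowest ratios among genes with 50 UMIs whose club cell CPM was at least 0.5 of that in other cells, without immunoglobulin, haemoglobin, mitochondrial or ribosomal genes and unnamed models; Retnlg, Hp in mucous cells and single genes beside the splits by Scgb3a1 and Foxj1 were singled out after their values were seen. RefSeq's gene table for GRCm38.p6, the mm10 assembly, gave the coordinates. Interval code was tested on simulated data. Each of 19 alternatives changed 1 choice, 15 planned and 4 chosen after seeing the data.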

Additional observations from a re-analysis of the deposited data

How the results depend on the processing

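No paired analysis was possible because each group has 1 library, and for the same reason no library could be left out. Log2 ratios (DJ-1 KO OVA over WT OVA, and WT OVA over WT PBS) and their medians follow; the cause of each shift was not tested unless given. With a mucous limit of 1%, the DJ-1 KO OVA over WT OVA medians were -0.21 for defence and -0.47 for the IL-13 list. With the smaller cells of shared barcodes kept, the share of club cells was 1.35% in DJ-1 KO OVA, against 1.68% in WT PBS.

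With both cells of shared barcodes left out, the shares were 0.169% in DJ-1 KO OVA, against 0.390% in WT PBS, from fewer cells by construction. For WT OVA over WT PBS 521 genes were lower, the medians were -0.0097 for acute phase and -0.33 for immediate early genes, and the ratios were -0.21 for Sftpd, 0.28 for Sdf2l1, -0.079 for Tnfaip3, -0.027 for Notch1 and 0.62 for Park7. Between DJ-1 KO OVA and WT OVA 1846 genes were higher, and the medians were 0.13 for defence, 0.20 for xenobiotic metabolism, 0.56 for alarmins, 0.22 for immediate early genes and 1.29 for the secretory pathway. The ratios were -1.51 for Foxj1, -2.33 for Tppp3, 0.29 for Pon1, 0.68 for Ccl20, 0.97 for Ptgs2, 0.58 for Cxcl1, 0.42 for Tnfaip3, -1.06 for Foxa2 and -0.10 for Ifitm3.

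With cells weighted alike, 497 genes were lower for WT OVA over WT PBS, the medians were -0.40 for defence and -0.046 for immediate early genes, and the ratio was -0.19 for Sftpd. Between DJ-1 KO OVA and WT OVA 842 genes were higher and 277 lower, with -0.19 for defence, 0.30 for Ptgs2 and 0.029 for Cxcl1. Leaving the dominant genes out of the total gave 178 higher and 383 lower genes between DJ-1 KO OVA and WT OVA, and -0.36 for defence, -0.51 for xenobiotic metabolism, 0.65 for the secretory pathway, -0.024 for Wfdc2 and -0.033 for Aldh1a1. Median scaling gave 248 higher and 289 lower, and -0.23 for defence.

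Thinning to 1000 UMIs, which leaves few genes measured, gave 17 higher and 18 lower genes for WT OVA over WT PBS, with -0.29 for acute phase, 0.48 for the secretory pathway, -0.031 for Sftpd, -0.045 for Cxcl15, 0.042 for Aldh1a1, -0.14 for Tnfaip3, -0.63 for Notch1 and 0.11 for Park7. Between DJ-1 KO OVA and WT OVA it gave 26 higher and 19 lower, with 1.67 for the IL-13 list, 0.20 for the secretory pathway, -0.040 for Wfdc2 and -0.018 for Aldh1a1. A minimum of 100 UMIs per gene gave 93 higher and 76 lower for WT OVA over WT PBS, and 104 and 53 between DJ-1 KO OVA and WT OVA, with -0.17 for defence.

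The next 3 alternatives were chosen after seeing the data. With only cells under 0.5% Scgb3a1, 607 genes were higher and 30 lower for WT OVA over WT PBS. The medians were -0.10 for defence, 1.40 for the IL-13 list and 0.35 for the secretory pathway. The ratios were 4.10 for Bpifb1, 1.67 for Tff2, 0.48 for Chil4, -0.19 for Sftpd, -0.39 for Cxcl15, 0.78 for Pigr, 0.15 for C3, 0.21 for Wfdc2, 1.03 for Krt15, 0.39 for Gsto1, 0.10 for Aldh1a1, 0.63 for AW112010 and 0.33 for Ifitm3. Between DJ-1 KO OVA and WT OVA defence was at 0.76, Scgb3a1 at 0.38, Reg3g at 1.80 and Bpifb1 at 2.30. Without Foxj1 cells 246 genes were higher and C3 was at 0.034 for WT OVA over WT PBS, and Tppp3 was at -0.81 between DJ-1 KO OVA and WT OVA. Without the top cell of each gene 263 genes were higher and Chil4 was at 1.69 for WT OVA over WT PBS, and 213 genes were higher and Bpifb1 was at 0.38 between DJ-1 KO OVA and WT OVA.

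Of the shares, gene counts and the medians of 4 lists (defence, xenobiotic metabolism, IL-13 and secretory pathway), 213 values under an alternative stayed within the set limits and 44 moved, beside the turn of the IL-13 median of WT OVA over WT PBS to 1.40. Medians of DJ-1 KO OVA relative to WT OVA that moved to the other side of 0 were those of the IL-13, xenobiotic metabolism and defence lists. In 43 pairs of gene and alternative a count of 0 gave no value.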
